A study of Homo sapiens with 9 samples.

Results

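The expression of 9 genes with roles in neural adhesion and neurotrophic signalling was described in OVCAR3, a cell line from a human epithelial ovarian carcinoma. The genes were *NCAM1*, *L1CAM*, *CNTN1*, *TENM4*, *MDK*, *PTN*, *NTF3*, *GFRA1* and *BCL11A*, and they were 9 of the 60660 genes in the count matrix. They were chosen by their levels in these same libraries, with their differences between the conditions already known. Their values are therefore given as a description, without p-values, and how many met the thresholds of the comparison is set beside the share of all genes only. The name of the group did not cover 1 of them, since *BCL11A* encodes a transcription factor and no adhesion molecule or neurotrophic factor.

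RNA was sequenced from 9 libraries, with 3 biological replicates in each of 3 conditions, and each replicate pooled 3 technical replicates. CTCFL, also called BORIS, is a germline DNA-binding paralog of the chromatin protein CTCF. CTCFL-OE cells were transiently transfected overnight with 2 µg of the plasmid pCpGfree-vitroHBORIS with the reading frame of CTCFL, and collected at 48 h. CTCFL-KD cells were treated with siRNAs against *CTCFL*, and their RNA came from an earlier knockdown experiment. The labels give no treatment for Control, and the methods of the study name a LacZ plasmid for these cells. The knockdown and the separate experiment cannot be told apart in CTCFL-KD, and the 3 Control libraries served in both comparisons.

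Neural cell adhesion molecules hold cells together through immunoglobulin-type domains on the cell surface. NCAM1 binds NCAM1 on neighbouring cells, L1CAM binds L1CAM and integrins, and contactin 1, the product of *CNTN1*, is a membrane-anchored partner of the L1 family. Teneurin 4, the product of *TENM4*, is a large transmembrane protein, and teneurins bind latrophilins across the cell contact. Midkine (*MDK*) and pleiotrophin (*PTN*) form a family of secreted heparin-binding growth factors, and neurotrophin 3 (*NTF3*) is the preferred ligand of the receptor tyrosine kinase NTRK3. GFRA1 is the coreceptor that presents GDNF to the kinase RET, and NCAM1 can also act as a GDNF receptor with GFRA1. BCL11A is a zinc finger repressor known for silencing fetal globin genes and for its part in neuron development. L1CAM is known in ovarian carcinoma as a marker of invasive growth.

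The libraries held 14332622 to 24490080 counts on genes. A gene without a count could still have up to 3 counts in a library, which corresponded to 0.117 to 0.271 CPM, the counts of a gene relative to the total of its library, with totals scaled by TMM (edgeR's normalization). Such limits cover counting error only. *CTCFL* itself had 6, 9 and 10 counts in Control, 36, 34 and 72 under CTCFL-OE and 0, 1 and 0 under CTCFL-KD, in the order that the labels give. The 11 markers used for OVCAR3, among them *PAX8*, *MUC16* and *KRT8*, were detected in every library, with a summed level of 5964 to 6087 CPM in Control, 5062 to 5559 under CTCFL-OE and 9989 to 17060 under CTCFL-KD. In CTCFL-KD, 6 of the 11 rose and 1 fell, where 15.3% of all genes tested rose and 7.94% fell. Of these calls, that of *EPCAM* was lost without CTCFL-KD replicate 1 (log2 fold change 0.94) and that of *KRT7*, the gene that fell, without CTCFL-KD replicate 2 or 3. Mitochondrial genes took 6.16 to 6.52% of counts in Control, 7.40 to 14.9% under CTCFL-OE and 7.80 to 11.8% under CTCFL-KD.

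The members fell into 3 kinds by level. *CNTN1*, *TENM4*, *PTN*, *GFRA1* and *BCL11A* were at or under 3 counts in each Control and CTCFL-OE library and were detected in each CTCFL-KD library. *NCAM1*, *NTF3* and *MDK* were detected in all 9 libraries and were highest in CTCFL-KD. *L1CAM* was detected in all 9 libraries and was lowest in CTCFL-KD. All 9 passed the low-count filter, but the 5 undetected in Control passed only through their CTCFL-KD libraries and so had to differ. In bulk RNA, a larger share of cells that express a gene and more RNA of it per cell cannot be told apart.

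**Figure D1:**
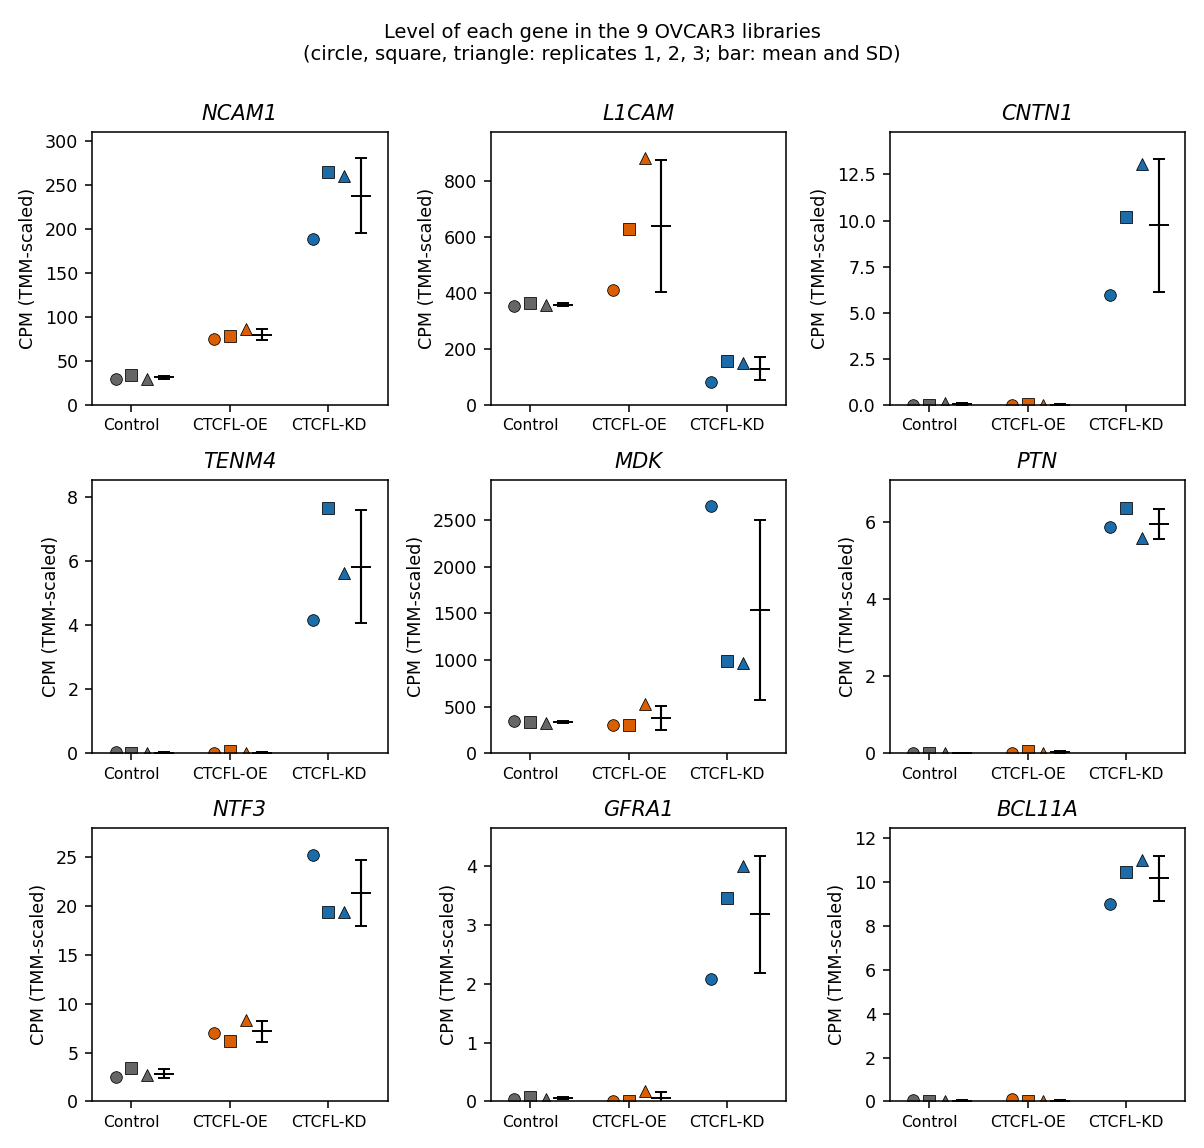
Level of each of the 9 genes in CPM (vertical axes, linear from 0, each with its own range) by condition, with 1 point per library and the mean with its SD beside the points. *CNTN1*, *TENM4*, *PTN*, *GFRA1* and *BCL11A* lie on the zero line in Control and CTCFL-OE, whereas *NCAM1* stands at a mean of 31.1, 80.0 and 238 CPM in Control, CTCFL-OE and CTCFL-KD, and *L1CAM* is lowest in CTCFL-KD.

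*NCAM1* (ENSG00000149294.17, chromosome 11, 112961275 to 113278436, plus strand, GRCh38) was measured at 29.9, 33.7 and 29.8 CPM in Control, 74.7, 78.6 and 86.7 under CTCFL-OE and 189, 265 and 261 under CTCFL-KD. The 3 conditions did not overlap, and the CTCFL-KD libraries were the highest. The means were 31.1 ± 2.20 CPM in Control, 80.0 ± 6.07 under CTCFL-OE and 238 ± 42.7 under CTCFL-KD (SD, n = 3). By the ratio of mean CPM, the level was 2.57-fold higher in CTCFL-OE (fitted log2 fold change 1.36, standard error (SE) 0.18) and 7.65-fold higher in CTCFL-KD (fitted log2 fold change 2.94, SE 0.19). *NCAM1* overlaps the antisense gene *NCAM1-AS1*, which had 0 to 19 counts per library against 588 to 4758 for *NCAM1*. The strand setting of the counting is not stated in the sources used here, so reads of the overlapping stretch cannot be assigned to either gene.

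*L1CAM* (ENSG00000198910.14, chromosome X, 153861514 to 153886173, minus strand) differed the other way in CTCFL-KD. It was measured at 351, 362 and 356 CPM in Control, 409, 626 and 880 under CTCFL-OE and 83.2, 158 and 148 under CTCFL-KD. All CTCFL-KD libraries lay below and all CTCFL-OE libraries above the Control libraries. The log2 fold change was -1.46 (SE 0.31) in CTCFL-KD, with a 2.75-fold lower mean CPM, and 0.84 (SE 0.30) in CTCFL-OE. The spread within CTCFL-OE was wide, at 638 ± 236 CPM against 357 ± 5.42 CPM in Control. *L1CAM* in CTCFL-OE stood in the same order over the libraries as their mitochondrial shares of 7.40, 12.4 and 14.9%. *CTCFL* itself also stood in this order, at 1.642, 1.777 and 4.425 CPM. The part of either in the spread of *L1CAM* was not tested. With mitochondrial genes left out, the log2 fold change was 0.85. The antisense gene *L1CAM-AS1* overlaps *L1CAM* and had 16, 18 and 17 counts in Control and 0, 1 and 2 in CTCFL-KD, against 922 to 14318 per library for *L1CAM*, and the same limit on strand holds.

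Per kilobase of merged exons, *L1CAM* stood far above *NCAM1* in Control and at a like level in CTCFL-KD. Merged exons join all annotated transcripts of a gene, so levels on this scale can be set side by side only roughly. The level of *L1CAM* per kilobase was 20.5, 18.8 and 20.9 times that of *NCAM1* in the 3 Control libraries. This ratio was 9.57, 13.9 and 17.7 under CTCFL-OE and 0.769, 1.04 and 0.992 under CTCFL-KD. The libraries of the 3 conditions did not overlap in the ratio, and in CTCFL-KD the levels of both genes overlapped, at a mean of 18.8 CPM per kilobase for *NCAM1* and 17.8 for *L1CAM*.

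*CNTN1* (ENSG00000018236.15, chromosome 12, 40692439 to 41072415, plus strand) had 0, 0 and 2 counts in Control, 0, 1 and 0 under CTCFL-OE and 66, 171 and 239 under CTCFL-KD. The CTCFL-KD level was 5.95, 10.2 and 13.1 CPM, with a mean of 9.74 ± 3.59 (SD, n = 3). Against a limit of 3 counts in each Control library, this was at least 69.7-fold higher. *TENM4* (ENSG00000149256.16, chromosome 11, 78652829 to 79441030, minus strand) had 1, 0 and 0 counts in Control, 0, 1 and 0 under CTCFL-OE and 46, 129 and 103 under CTCFL-KD. Its CTCFL-KD level of 5.82 ± 1.77 CPM was at least 41.7-fold higher by the same limit. Neither gene was detectable above the limit in Control or CTCFL-OE at this depth, so no fold is given for CTCFL-OE.

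*PTN* (ENSG00000105894.12, chromosome 7, 137227341 to 137343774, minus strand), the pleiotrophin gene, had a single count over the 6 Control and CTCFL-OE libraries. In CTCFL-KD it had 65, 107 and 102 counts, or 5.86, 6.36 and 5.59 CPM. These libraries were close to each other, at 5.94 ± 0.393 CPM, and at least 42.5-fold above the Control limit.

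The windows around annotated start sites of these genes differed in sequence. RefSeq windows on GRCh38.p14, each of 300 bases with 250 before and 50 after a start, were matched for 7 of the 9 genes, with 17 windows in all. The following 3 windows are shown because their genes shared the pattern of no detected transcript outside CTCFL-KD while their content of CpG, the dinucleotide that DNA methylation acts on, was unlike. The *TENM4* window (chr11:79440981-79441280, minus strand) holds 30 CpGs, the *PTN* window (chr7:137343684-137343983, minus strand) holds 10, and the *CNTN1* window (chr12:40827934-40828233, plus strand), 1 of 2 for this gene, holds 6. The median over 35116 windows was 14. The *TENM4* and *PTN* windows cover the gene starts at the positions given above. Both *CNTN1* windows lie inside the gene, so its outermost annotated start was not covered. CpGs are in capitals, 5′ to 3′ along the gene.
TENM4: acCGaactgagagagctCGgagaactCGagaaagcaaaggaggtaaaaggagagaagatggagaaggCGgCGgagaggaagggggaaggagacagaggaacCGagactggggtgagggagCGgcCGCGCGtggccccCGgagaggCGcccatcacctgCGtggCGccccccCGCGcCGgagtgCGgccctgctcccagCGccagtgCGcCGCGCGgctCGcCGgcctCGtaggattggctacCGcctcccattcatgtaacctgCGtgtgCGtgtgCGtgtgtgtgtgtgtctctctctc
PTN: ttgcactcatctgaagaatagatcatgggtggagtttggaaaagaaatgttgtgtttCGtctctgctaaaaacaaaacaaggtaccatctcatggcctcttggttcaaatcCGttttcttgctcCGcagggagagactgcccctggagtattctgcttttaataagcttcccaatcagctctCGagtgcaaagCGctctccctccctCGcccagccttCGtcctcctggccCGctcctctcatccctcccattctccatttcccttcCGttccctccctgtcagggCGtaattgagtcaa
CNTN1: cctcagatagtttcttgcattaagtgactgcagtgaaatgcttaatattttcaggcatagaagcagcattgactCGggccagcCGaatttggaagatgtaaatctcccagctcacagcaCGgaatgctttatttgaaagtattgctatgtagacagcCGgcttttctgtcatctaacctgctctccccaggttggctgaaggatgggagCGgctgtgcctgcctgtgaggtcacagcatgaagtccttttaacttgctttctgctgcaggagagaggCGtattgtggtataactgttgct
The number of CpGs in these windows therefore lay on both sides of the median. Methylation was not measured in these libraries.

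*MDK* (ENSG00000110492.15, chromosome 11, 46380756 to 46383837, plus strand), the midkine gene, was the member with the highest level per kilobase in all 3 conditions. It was measured at 343, 338 and 328 CPM in Control, 304, 305 and 529 under CTCFL-OE and 2646, 991 and 964 under CTCFL-KD. All CTCFL-KD libraries lay above Control, while the CTCFL-OE libraries overlapped it. The log2 fold change in CTCFL-KD was 2.19 (SE 0.40), with a mean CPM 4.56-fold that of Control, and it was 1.54 without CTCFL-KD replicate 1. In CTCFL-OE it was 0.17 (SE 0.38), and it was -0.15 in the fit without CTCFL-OE replicate 3, which gave 529 CPM, so the sign rested on that library. The neighbouring gene *CHRM4* overlaps the end of *MDK* and had 3 to 16 counts per library.

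*NTF3* (ENSG00000185652.12, chromosome 12, 5432108 to 5521536, plus strand), the neurotrophin 3 gene, was measured at 2.50, 3.38 and 2.68 CPM in Control, 7.02, 6.22 and 8.36 under CTCFL-OE and 25.2, 19.4 and 19.4 under CTCFL-KD. The 3 conditions did not overlap, in the same order as for *NCAM1*. The means were 2.86 ± 0.463, 7.20 ± 1.08 and 21.3 ± 3.39 CPM. The mean CPM was 2.52-fold that of Control in CTCFL-OE and 7.47-fold in CTCFL-KD. The fitted log2 fold changes were 1.32 (SE 0.21) and 2.89 (SE 0.21).

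*GFRA1* (ENSG00000151892.15, chromosome 10, 116056925 to 116276803, minus strand), the GDNF coreceptor, had 1, 2 and 1 counts in Control, 0, 0 and 3 under CTCFL-OE and 23, 58 and 73 under CTCFL-KD. At 3.17 ± 0.991 CPM in CTCFL-KD it was at least 22.7-fold above the Control limit. It was the lowest of the 9 genes in CTCFL-KD on both scales, CPM and CPM per kilobase.

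*BCL11A* (ENSG00000119866.22, chromosome 2, 60450520 to 60554467, minus strand) had 1, 0 and 0 counts in Control, 2, 0 and 0 under CTCFL-OE and 100, 176 and 201 under CTCFL-KD. The CTCFL-KD level was 9.02, 10.5 and 11.0 CPM, with a mean of 10.2 ± 1.03 (SD, n = 3), at least 72.8-fold above the Control limit. No other member had a higher lower bound.

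The windows were searched on both strands for AGGGGGC, a stretch of the core motif that CTCF and CTCFL share. It occurred in 2 of the 17 windows of these genes and in 14.4% of all windows. The 2 windows are shown because they belong to genes that differed in opposite directions in CTCFL-KD. They are 1 of 5 windows of *BCL11A* (chr2:60553605-60553904, minus strand) and 1 of 2 of *L1CAM* (chrX:153875895-153876194, minus strand). Neither covers the outermost annotated start of its gene. Both hold the reverse complement, GCCCCCT, which is in capitals.
BCL11A: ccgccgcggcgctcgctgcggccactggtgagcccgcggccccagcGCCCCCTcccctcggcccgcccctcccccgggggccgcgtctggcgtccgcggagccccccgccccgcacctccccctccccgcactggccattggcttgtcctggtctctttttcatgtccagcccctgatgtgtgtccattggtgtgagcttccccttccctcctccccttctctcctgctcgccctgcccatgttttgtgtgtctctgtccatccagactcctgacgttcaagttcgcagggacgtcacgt
L1CAM: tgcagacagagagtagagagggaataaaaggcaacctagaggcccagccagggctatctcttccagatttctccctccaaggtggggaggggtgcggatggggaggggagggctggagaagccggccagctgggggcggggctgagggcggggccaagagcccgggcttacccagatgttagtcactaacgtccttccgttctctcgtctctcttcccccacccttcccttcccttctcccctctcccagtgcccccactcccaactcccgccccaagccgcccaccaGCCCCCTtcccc
A match of these letters is a description of the window and no measurement of binding.

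In CTCFL-OE, 2 of the 9 members, *NCAM1* and *NTF3*, met the criteria for a differentially expressed gene (DEG). These were a log2 fold change beyond 1 together with an adjusted p that was under 0.1 for CTCFL-OE and under 0.05 for CTCFL-KD. *NTF3* no longer met them without Control replicate 1 or 3, and *L1CAM* met them without CTCFL-OE replicate 1, at a log2 fold change of 1.07. Among all 17794 genes tested, 1.37% were DEGs with a higher and 0.702% with a lower level in CTCFL-OE. Adding *L1CAM*, 3 members had CTCFL-OE libraries that all lay outside the Control range, as did 37.1% of all genes. In CTCFL-KD, 8 members met the criteria with a higher level and *L1CAM* with a lower level, where 15.3% of all genes did so with a higher and 7.94% with a lower level. The CTCFL-KD libraries of all 9 lay outside the Control range, as did those of 56.3% of all genes. Since the members were chosen with these values known, nothing is read from their counts. The median log2 fold change of the 9 in CTCFL-KD was 5.58 as fitted, beside 0.08 over all genes. It was 4.51 with the 5 genes undetected in Control at their lower bounds. Nothing is read from this median either, for the same reason.

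**Figure D2:**
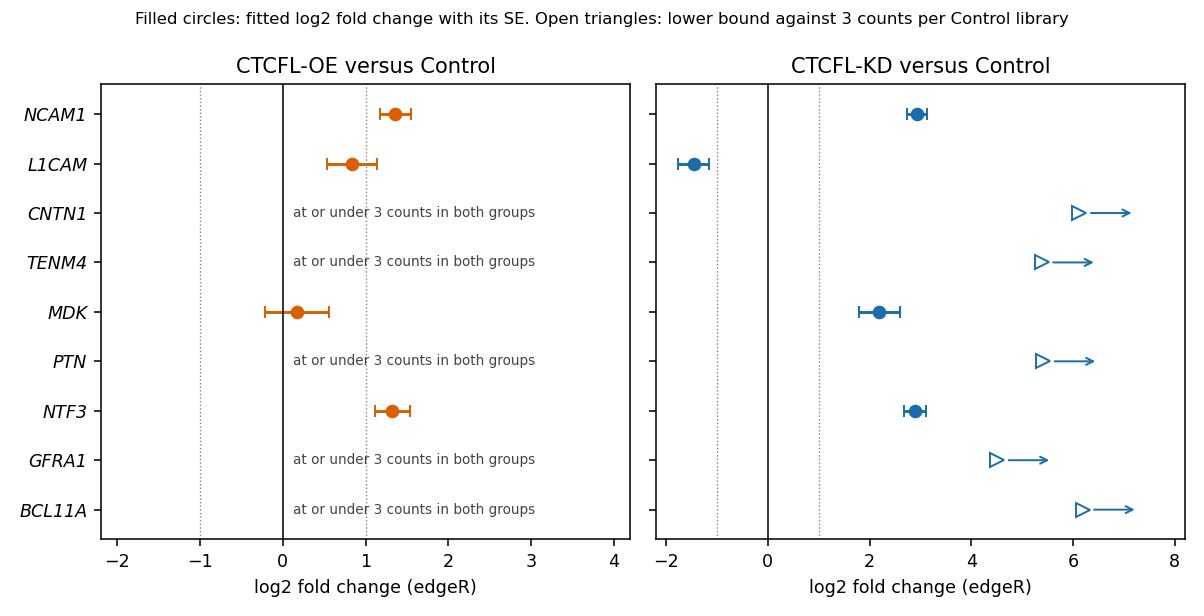
Log2 fold change of each gene against Control (horizontal axes) in CTCFL-OE and CTCFL-KD, with circles and bars for the fitted value and its SE, open triangles for lower bounds and dotted lines at -1 and 1. *NCAM1* and *NTF3* lie beyond 1 in both panels, *L1CAM* is at 0.84 in CTCFL-OE and -1.46 in CTCFL-KD, and 5 genes have only a lower bound in CTCFL-KD.

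The pattern of *CNTN1*, *TENM4*, *PTN*, *GFRA1* and *BCL11A* was then counted over all genes. At most 3 counts in every Control library together with at least 1 CPM in every CTCFL-KD library was found for 58 genes, or 0.326% of those tested, of which 54 are protein-coding. The same step was found for 0 genes in CTCFL-OE, and the reverse step, from at least 1 CPM in Control to at most 3 counts in CTCFL-KD, for 34 genes. Ordered by mean CPM in CTCFL-KD, *BCL11A*, *CNTN1*, *PTN* and *TENM4* stood at places 7, 8, 9 and 11 of the 58, and *GFRA1* at 28. The 5 genes together had 16 counts in the 6 Control and CTCFL-OE libraries and 1659 in CTCFL-KD.

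Levels per kilobase gave the order of the genes within each condition. In Control the order was *MDK* (154 CPM per kilobase), *L1CAM* (49.1), *NCAM1* (2.45) and *NTF3* (0.977), and no neighbours in this order overlapped. The order was the same in CTCFL-OE, again without overlap. In CTCFL-KD, *MDK* at 703 CPM per kilobase was followed by *NCAM1* and *L1CAM*, *NTF3* (7.30), *PTN* (3.66), *CNTN1* (1.27), *BCL11A* (0.415), *TENM4* (0.355) and *GFRA1* (0.298). Here *NCAM1* overlapped *L1CAM*, *BCL11A* overlapped *TENM4*, and *TENM4* overlapped *GFRA1*.

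Replicate 1 of CTCFL-KD stood apart from the other CTCFL-KD libraries. It had a TMM factor of 0.775, and its log2 ratio to the mean of replicates 2 and 3 fell with merged exon length, with a Spearman correlation of -0.456 across 15327 genes of 1 comparison of libraries, which is given as a description. Of the members, 6 were lower in replicate 1 than in both other libraries and 2, *MDK* and *NTF3*, were higher. The ratio of replicate 1 to the mean of the others was 2.71 for *MDK* and 1.30 for *NTF3*, with 2182 and 2923 bases of merged exons. It was 0.512 for *CNTN1*, 0.544 for *L1CAM*, 0.557 for *GFRA1*, 0.623 for *TENM4* and 0.719 for *NCAM1*, which have 7269 to 16414 bases. *BCL11A*, at 0.840, has the longest merged exons, with 24514 bases. Without this library the log2 fold change in CTCFL-KD was 3.08 for *NCAM1*, 2.75 for *NTF3* and -1.22 for *L1CAM*.

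**Figure D3:**
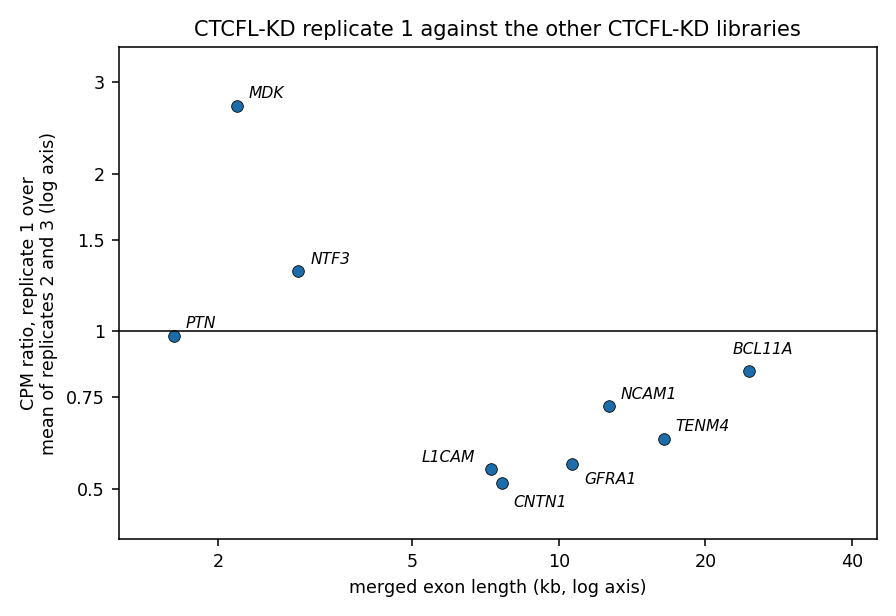
Ratio of the CPM in CTCFL-KD replicate 1 to the mean of replicates 2 and 3 (vertical log axis) against merged exon length in kilobases (horizontal log axis), with 1 point per gene and a line at a ratio of 1. *MDK* at 2.71 and *NTF3* at 1.30 lie above the line, *PTN* at 0.981 lies next to it, and the 6 genes with longer exons lie below it.

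Receptors, ligands and relatives of the members were followed in 6 lists of 67 genes, of which 44 passed the low-count filter. In CTCFL-KD, 19 of the 44 rose, 4 fell and 21 did not meet the criteria. In CTCFL-OE, 4 rose and 40 did not meet the criteria. The share of all genes is given above, at 15.3% higher and 7.94% lower for CTCFL-KD and 1.37% higher and 0.702% lower for CTCFL-OE. Of the 19, *GFRA3*, *CHL1* and *CADM2* passed the low-count filter only through their CTCFL-KD libraries and so had to differ, and no p is given for them. No gene of the lists was called lower in CTCFL-OE by edgeR's quasi-likelihood test, where 2 were lower at an unadjusted p under 0.05. *ADGRL3*, a latrophilin gene named after its values were seen, had a log2 fold change of -1.33 (SE 0.41, adjusted p = 0.139) and was called in 5 of 17 alternatives, among them DESeq2 and, at -1.45 (adjusted p = 0.0431), edgeR with the replicate block. The adjusted p-values below come from edgeR's quasi-likelihood test and were adjusted by the Benjamini-Hochberg method over all genes tested. The median log2 fold change of the lists in CTCFL-KD ran from 0.50 to 1.66, beside 0.08 over all genes.

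Of 9 genes of the GDNF family and its receptors, 5 were tested, and in CTCFL-KD 2 rose and 1 fell. *GFRA3*, the coreceptor of artemin, had 4, 2 and 1 counts in Control, 4, 6 and 2 under CTCFL-OE and 80, 72 and 84 under CTCFL-KD, a log2 fold change of 5.55 (SE 0.45). *RET*, the signalling kinase that GFRA1 and GFRA3 share, fell in CTCFL-KD by 1.29 on the log2 scale (SE 0.43, adjusted p = 0.0345), with 15, 13 and 20 counts in Control and 3, 4 and 7 in CTCFL-KD, and this call was lost with DESeq2. *GDNF*, the ligand of GFRA1, had no count in any of the 9 libraries. *NRTN*, the neurturin gene, rose by 1.20 (SE 0.43, adjusted p = 0.0472). The call of *NRTN* was lost with the replicate block (adjusted p = 0.0684) and without CTCFL-KD replicate 1 (log2 fold change 0.47, adjusted p = 0.135). The coreceptors *GFRA1* and *GFRA3* were thus both highest in CTCFL-KD, where the kinase was close to the limit of detection.

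Of 12 neurotrophins and receptors, 8 were tested. The receptor of neurotrophin 3, *NTRK3*, had at most 4 counts in any library. *NTRK2*, the receptor of BDNF, had 36, 40 and 41 counts in Control and 23, 61 and 65 in CTCFL-KD (adjusted p = 0.0718), and *NGFR*, the common neurotrophin receptor, had 36, 41 and 25 in Control, 18, 22 and 12 under CTCFL-OE (adjusted p = 0.224) and 23, 21 and 38 under CTCFL-KD (adjusted p = 0.614). In CTCFL-OE, *BDNF*, another neurotrophin, rose from 78, 84 and 66 counts to 108, 182 and 406, a log2 fold change of 1.90 (SE 0.47, adjusted p = 0.0833). The sorting receptor gene *SORCS2* rose in CTCFL-OE by 1.04 (SE 0.21, adjusted p = 0.0494). In CTCFL-KD the list had 1 DEG, *SORCS1*, at 1.05 (SE 0.21, adjusted p = 0.00278), and the log2 fold change of *BDNF* was -0.16 (adjusted p = 0.821). Without CTCFL-KD replicate 1 the sorting receptor genes *SORT1* and *SORL1*, named after their values were seen, were also called, at 1.03 (adjusted p = 0.000507) and 1.19 (adjusted p = 0.000184), against 0.88 and 0.88 with all libraries.

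Of 10 receptors of midkine and pleiotrophin, 8 were tested and 4 rose in CTCFL-KD. *SDC1*, which encodes the heparan sulfate proteoglycan syndecan 1, was at 63.3 CPM in Control, 115 under CTCFL-OE and 246 under CTCFL-KD, a log2 fold change of 1.96 in CTCFL-KD (SE 0.28, adjusted p = 0.000409). *LRP1*, an endocytic receptor, rose by 1.77 (SE 0.31, adjusted p = 0.00138). *ALK*, a receptor tyrosine kinase, had 70, 95 and 75 counts in Control, 100, 143 and 160 under CTCFL-OE and 72, 202 and 241 under CTCFL-KD, and rose by 1.54 in CTCFL-KD (SE 0.32, adjusted p = 0.00368). *GPC2*, which encodes a glypican, rose by 1.30 (SE 0.35, adjusted p = 0.0140). *SDC3*, which encodes a syndecan of neural tissue, did not meet the criteria, with a log2 fold change of -0.19 in CTCFL-KD (adjusted p = 0.706). *PTPRZ1*, a receptor phosphatase that binds pleiotrophin, was not tested, with 0, 0 and 0 counts in Control, 0, 1 and 0 under CTCFL-OE and 6, 40 and 46 under CTCFL-KD, at least 13.0-fold higher than the limit of 3 counts per Control library. *LTK*, a relative of *ALK*, had 1 to 8 counts per library.

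The list of immunoglobulin-type adhesion molecules, with their partners and the enzymes that add polysialic acid to NCAM1, held 21 genes, of which 12 were tested. In CTCFL-KD 7 rose and 3 fell. *CHL1*, the close homologue of *L1CAM*, had no count in Control or CTCFL-OE and 9, 32 and 38 in CTCFL-KD, at least 11.4-fold higher. *CADM2* had at most 4 counts in any Control or CTCFL-OE library and 11, 31 and 32 in CTCFL-KD, at least 11.0-fold above the Control limit. *ST8SIA4*, 1 of the polysialic acid enzymes, had 14, 18 and 16 counts in Control and 84, 156 and 201 in CTCFL-KD, which gave a log2 fold change of 3.65 (SE 0.47, adjusted p = 0.000221), whereas the other enzyme, *ST8SIA2*, was at 0.15 (adjusted p = 0.803). *CADM1* rose by 3.40 (SE 0.27, adjusted p = 1.03e-05) and *NCAM2*, the paralog of *NCAM1*, by 2.01 (SE 0.28, adjusted p = 0.000343).

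Members of the L1 family did not move alike in CTCFL-KD. *NFASC* rose by 1.42 on the log2 scale (SE 0.24, adjusted p = 0.00133) and *NRCAM* fell by 1.14 (SE 0.40, adjusted p = 0.0420), beside the lower level of *L1CAM* and the higher level of *CHL1*. The contactin-associated genes *CNTNAP1* and *CNTNAP2* fell by 1.26 (SE 0.41, adjusted p = 0.0334) and 1.63 (SE 0.28, adjusted p = 0.00120). When single Control or CTCFL-KD libraries were left out, *CNTNAP1* was called in 0 and *NRCAM* in 1 of 6 fits. In CTCFL-OE, *NFASC* rose by 1.05 (SE 0.24, adjusted p = 0.0692) and *CNTNAP1* by 1.38 (SE 0.34, adjusted p = 0.0797). *CADM4* was the remaining DEG of this list in CTCFL-KD, at 1.91 (SE 0.25, adjusted p = 0.000228). *CADM4*, *CNTNAP2* and *ST8SIA2* were named after their values were seen.

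The teneurin list held 9 genes, of which 8 were tested and 4 rose in CTCFL-KD. *TENM3*, the teneurin with the highest counts, was at 544 CPM in Control, 759 under CTCFL-OE and 648 under CTCFL-KD, with a log2 fold change of 0.25 in CTCFL-KD (SE 0.29, adjusted p = 0.516). *TENM1* rose in CTCFL-KD by 1.69 (SE 0.59, adjusted p = 0.0442), with overlapping libraries, and its call was lost with the replicate block (adjusted p = 0.0614). *TENM2* had 1 to 12 counts per library. The FLRT genes, which encode partners of the latrophilins that teneurins bind, rose in CTCFL-KD by 2.02 for *FLRT3* (SE 0.32, adjusted p = 0.000808), 1.77 for *FLRT1* (SE 0.45, adjusted p = 0.0105) and 1.56 for *FLRT2* (SE 0.22, adjusted p = 0.000383). Of 6 relatives and partners of BCL11A, 3 were tested. Its paralog *BCL11B* had at most 3 counts in any library, and the fetal globin genes *HBG1* and *HBG2*, named after their values were seen, had no count in any library. *NR2F1*, which encodes an orphan nuclear receptor, rose in CTCFL-KD by 1.03 (SE 0.19, adjusted p = 0.00201), but stayed below a log2 fold change of 1 with DESeq2 (0.99) and without a low-count filter (0.96).

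**Figure D4:**
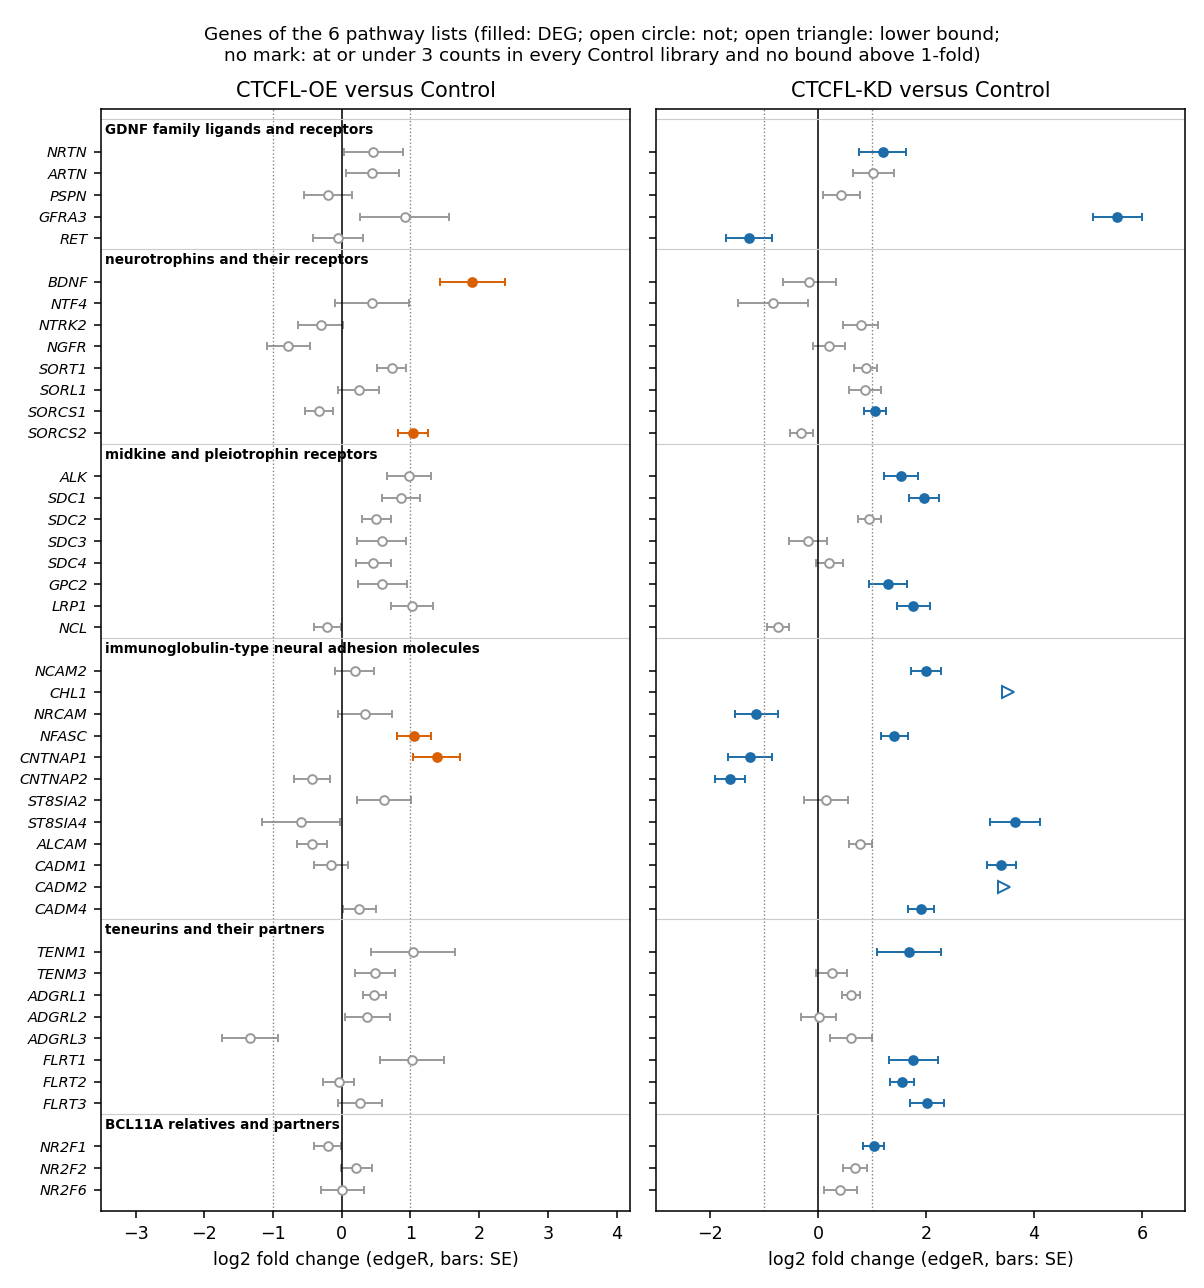
Log2 fold change against Control with its SE (horizontal axes) for the 44 tested genes of the 6 lists, by list, in CTCFL-OE and CTCFL-KD. Filled points are DEGs, 4 in CTCFL-OE and 23 with the 2 triangles in CTCFL-KD, open circles are the other genes, and triangles are lower bounds of genes with at most 3 counts in every Control library.

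The calls of the lists in CTCFL-OE depended on single libraries. *BDNF*, *SORCS2*, *NFASC* and *CNTNAP1* were each lost without Control replicate 1, 2 or 3 and without CTCFL-OE replicate 2 or 3, with adjusted p-values over the alternatives of up to 0.335, 0.255, 0.298 and 0.339. *BDNF* and *CNTNAP1* were also lost without CTCFL-KD replicate 2 or 3. With the replicate block, the adjusted p was 0.111 for *BDNF*, 0.101 for *NFASC* and 0.103 for *CNTNAP1*, and *SORCS2* remained called. Without CTCFL-OE replicate 3 the log2 fold change of *BDNF* was 1.03. In CTCFL-KD, 15 of the 23 called genes of the lists were called in all 6 fits that left out a Control or CTCFL-KD library. Among the 15 were *GFRA3*, *CHL1* and *CADM2*, whose calls say nothing here, since they had to differ. Of the 8 genes not called in all of these fits, *CNTNAP1* reached an adjusted p of up to 0.0780. *NRCAM* was lost without any 1 Control library and without CTCFL-KD replicate 1 or 2 (up to 0.0950), *NRTN* without any 1 Control library and without CTCFL-KD replicate 1, and *TENM1* without any 1 Control library and without CTCFL-KD replicate 2 or 3 (up to 0.148). *RET* was lost without Control replicate 1 or 3 and without CTCFL-KD replicate 1 or 2 (up to 0.132), and *GPC2* without Control replicate 3 (0.0628). *SORCS1* and *NR2F1* stayed under the adjusted p but dropped to log2 fold changes as low as 0.94 and 0.98, *SORCS1* without Control replicate 1 or CTCFL-KD replicate 2 or 3, and *NR2F1* without Control replicate 2 or 3. The calls of *NRTN* and *TENM1* were also lost with edgeR on the 2 groups compared and without any 1 CTCFL-OE library, and that of *SORCS1* without a low-count filter (log2 fold change 0.98).

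Markers of other cells were counted beside these genes. Of 13 neuron markers, 5 were at or under 3 counts in all libraries, and *STMN2*, *ELAVL4*, *NEFL* and *NEFM* had no count. Their summed level was 53.7 to 55.0 CPM in Control, 32.9 to 35.6 under CTCFL-OE and 28.5 to 29.9 under CTCFL-KD. *INA* held most of this sum, at a mean of 39.4, 27.1 and 20.5 CPM. Its log2 fold change in CTCFL-KD was -0.94 (adjusted p = 0.000709). *SYP* was at 0.335 CPM in Control and 0.825 in CTCFL-KD (adjusted p = 0.109). *GAP43* and *DCX*, which were not tested, had 0, 0 and 0 and 1, 0 and 0 counts in Control and 1, 4 and 1 and 0, 4 and 9 in CTCFL-KD. In CTCFL-KD *ELAVL3* went from 0, 1 and 2 counts to 17, 37 and 39. *TUBB3* fell by 2.82 on the log2 scale in CTCFL-KD and by 1.32 in CTCFL-OE, and *RBFOX3* by 1.02 and 1.09. The CTCFL-KD call of *RBFOX3* was lost in 4 of 17 alternatives, and both CTCFL-OE calls were lost without any 1 Control library and without CTCFL-OE replicate 2 or 3. The 5 glia markers summed to 0.760 to 0.894 CPM in Control, 0.912 to 2.25 under CTCFL-OE and 0.822 to 1.44 under CTCFL-KD. The 10 fibroblast markers summed to 28.0 to 33.8 CPM in Control, 25.0 to 44.2 under CTCFL-OE and 37.8 to 43.0 under CTCFL-KD. Of these, *COL1A2* went from no count in Control to 156, 239 and 247 in CTCFL-KD, *COL3A1*, which was not tested, from no count in Control or CTCFL-OE to 8, 9 and 8, and *POSTN* from 2, 1 and 5 to 9, 18 and 13. *ELAVL3*, *COL1A2* and *POSTN* met the DEG criteria but passed the low-count filter only through CTCFL-KD. *COL1A1*, the fibroblast marker with the highest CPM in Control, was at 29.8 CPM in Control and 23.3 in CTCFL-KD, with all CTCFL-KD libraries below Control (log2 fold change -0.36, adjusted p = 0.221), and *FAP* was at -0.05 (adjusted p = 0.946). *PDGFRB* had 2 to 17 counts per library, and *DCN*, *LUM*, *PDGFRA* and *THY1* had at most 9 counts in any library. The marker genes were named after their values were seen, and their part in the levels of the 9 genes was not tested.

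The genes most like each member over the 9 libraries were taken by Pearson's r of log2 CPM, as a description. The points share the 3 conditions and the library depths. For *PTN* these were *COL1A2* (0.9986) and *PGAP4* (0.9975), for *TENM4* *SALL1* (0.9965) and *PTN* (0.9956), for *CNTN1* *PWWP3B* (0.9973) and *ELAVL3* (0.9961), for *BCL11A* *KCNJ13* (0.9959) and *AKT2* (0.9958), and for *GFRA1* *CADM1* (0.9955) and *MOXD1* (0.993). For the genes detected in all libraries they were *ATP2C2* (0.9935) and *LAMA1* (0.9933) for *NCAM1*, *TMEM223* (0.9966) and *SEC22A* (0.9954) for *MDK*, *METTL7A* (0.9926) and *KCNJ11* (0.9913) for *NTF3*, and *CYP4F3* (0.9928) and *PRC1* (0.9907) for *L1CAM*. One pair, *TENM4* and *PTN*, thus consisted of members. Both were at or under 3 counts in each Control and CTCFL-OE library, so their r reflects the step to CTCFL-KD that they share.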

How the data were processed

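RNA of 9 OVCAR3 libraries had been sequenced as paired ends. The authors used Trimmomatic for trimming, STAR for alignment to GRCh38 and featureCounts for counting, and the deposited values are raw counts per gene without normalization. The processing notes also list kallisto, with no role. The annotation release, strand setting and treatment of reads with several alignments are not given in the sources used here. GENCODE release 44 named 60419 of the 60660 identifiers, and exon lengths and positions are from it. The counts were fitted with edgeR 4.0.16 (R 4.3.3): filterByExpr left 17794 genes, libraries were scaled by TMM, and a robust quasi-likelihood model with condition as the only factor was fitted to all 9 libraries. The contrasts of both conditions to Control were tested with edgeR's quasi-likelihood test, with p-values adjusted by the Benjamini-Hochberg method. DEGs had a log2 fold change beyond 1 and an adjusted p under 0.1 (CTCFL-OE) or 0.05 (CTCFL-KD), the thresholds of the study. A script that drew counts with known changes was used to test the fit on simulated data. Counted reads carry no molecular identifiers.

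The members, the gene lists and the tests were chosen with earlier results of these data known. The text names all members, 19 receptors, ligands and paralogs listed by name (of which 1 is not reported here), up to 4 DEGs per list and comparison with the largest log2 fold change whose treated libraries lay outside the Control range, and the 2 protein-coding genes most correlated with each member (log2 CPM, prior count of 2). Libraries of Control and CTCFL-KD with the same number deviated together from their group means, with correlations of 0.18, 0.115 and 0.113 across 17794 genes. Those with different numbers had -0.169 to 0.053, and these values are not independent, since they share the group means. The numbers were therefore taken to pair these samples from the data. The labels do not say what the number marks, and the CTCFL-KD RNA came from an earlier experiment. For CTCFL-OE, libraries with the same number as a Control library had correlations of -0.011, 0.154 and -0.048. Alternatives were scaling by RLE or by the upper quartile, DESeq2 1.42.0, no filter on low counts, a minimum of 10 counts in each library, edgeR on the 2 groups compared, a replicate block, mitochondrial genes left out and each library left out. Figures were drawn with matplotlib 3.10.9 in Python 3.11.15.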

Additional observations from a re-analysis of the deposited data

How the results depend on the processing

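Over the 17 alternatives, the log2 fold change in CTCFL-KD ran from 2.86 to 3.08 for *NCAM1*, 1.54 to 2.43 for *MDK*, 2.75 to 3.02 for *NTF3* and -1.61 to -1.22 for *L1CAM*. All 9 members were chosen with these values known and 5 passed the low-count filter only through CTCFL-KD, so their calls say nothing about stability. Requiring at least 10 counts in every library left 4 members, since it removed the 5 genes undetected in Control, and left 15 called genes of the 6 lists in CTCFL-KD, against 23, with fewer genes tested. In CTCFL-OE, *NCAM1* and *NTF3* met the criteria in every alternative that kept all libraries. When single libraries were left out, 1 to 3 members did so: *NTF3* was lost without Control replicate 1 or 3, and *L1CAM* was gained without CTCFL-OE replicate 1, at a log2 fold change of 1.07. The DEGs in CTCFL-OE versus Control numbered 368, but 826 without a low-count filter, 835 with edgeR on the 2 groups compared, 545 with DESeq2 and 44 to 1184 when single libraries were left out. The lowest counts were 44, 61 and 45 without Control replicate 3, 2 or 1 and 79 and 109 without CTCFL-OE replicate 2 or 3, and the highest were 1184 without CTCFL-OE replicate 1 and 980 without CTCFL-KD replicate 1. The genes of the 6 lists called in CTCFL-OE numbered 4, 7 with edgeR on the 2 groups, 6 with DESeq2, 2 with the replicate block, and 0 to 8 when single libraries were left out. They numbered 0 by edgeR without any 1 Control library or without CTCFL-OE replicate 2 or 3, where 8 to 12 genes of the lists had an unadjusted p under 0.05. With the replicate block, 302 and 4027 DEGs were found in CTCFL-OE and CTCFL-KD. For CTCFL-KD, where the numbers were taken to pair the samples, the block left 21 called genes of the lists and all 9 members. The calls lost were those of *NRTN* and *TENM1*. The DEGs in CTCFL-KD versus Control numbered 4132 and ran from 2917 to 5127 over the alternatives. None of the 38 called log2 fold changes of single genes changed sign, while 19 of the 68 that were not called did so in at least 1 alternative, *MDK* in CTCFL-OE among them. For the 5 members undetected in Control and for *GFRA3*, *CHL1* and *CADM2*, the sign in CTCFL-KD was fixed by the filter. The other called members were chosen with their values known, so this count says nothing about their stability. The cause of the shifts over the alternatives was not tested. Depth limits the 5 genes undetected in Control to lower bounds.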
